A study of Mus musculus with 2 samples.

Results

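The replication-dependent histone genes were read in single yolk sac cells. They were taken as every row whose symbol starts with Hist1h, Hist2h, Hist3h or Hist4h, which gave 68 of the 23154 genes in the files. By symbol, 6 belonged to the H1 family, 18 to H2A, 19 to H2B, 12 to H3 and 13 to H4. Cluster 1 held 54 of them, cluster 2 held 10, cluster 3 held 3 and cluster 4 held 1. The rule goes by symbol alone, so it also took in Hist3h2bb-ps, whose name marks a pseudogene, and Hist1h1t, Hist1h2ba and Hist1h2aa, which are best known from testis.

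The cells were PK44 cells of the E10.0 mouse yolk sac, sorted as CD41- CD43- CD45- CD31+ CD201+ Kit+ CD44+ from embryos on the C57BL/6 background. This phenotype was set up in the aorta-gonad-mesonephros region to capture hemogenic endothelial cells, the endothelial cells that can give rise to blood. A modified STRT-seq method was used, in which mRNA is primed with oligo-dT and transcripts are tagged with a cell barcode and a unique molecular identifier. There were 2 libraries of this one condition, replicate 1 with 43 cells and replicate 2 with 44 cells. The labels do not say whether the libraries came from separate litters, so the spread between them may be technical.

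Replication-dependent histone genes supply the core and linker histones that package newly made DNA, and their mRNAs accumulate in S phase. Most animal mRNAs end in a polyA tail, but these mRNAs typically end in a short stem-loop that is bound by the stem-loop binding protein Slbp. A priming step with oligo-dT therefore does not have the usual tail to bind, although some histone genes are known to give polyadenylated forms too. The counts below are thus of the molecules that this method could capture, and cannot be read as total histone mRNA. The counts are tags per gene and were not scaled for length, and levels are given as CPM, the counts of a gene divided by all counts of the library or cell and scaled to 1000000.

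All 68 genes were matched to the annotation (GENCODE M21, GRCm38). The authors aligned reads to a UCSC transcriptome of mm10, whose gene models were not compared with these. For each gene, a single transcript was searched for the stem-loop letters, the one with the longest part after the stop codon. Hist3h2bb-ps has no annotated stop codon and could not be searched. The letters GGCNCTTTTCAGNGCC were searched after the stop codon on the transcript strand, and 32 of the 68 genes held them. Of 55341 gene names in the annotation, 36 held the letters anywhere in a transcript, and 33 of these were histone genes of the 4 clusters. The sites of 5 genes are shown with 5 bases on either side to make the near identity of the ends visible, and the capitals mark the stem-loop. All are written 5′ to 3′ on the strand of the gene.
Hist1h2ae: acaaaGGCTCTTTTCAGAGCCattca
Hist1h1e: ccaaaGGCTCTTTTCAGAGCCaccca
Hist1h2bj: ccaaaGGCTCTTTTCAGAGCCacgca
Hist3h2a: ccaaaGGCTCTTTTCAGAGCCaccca
Hist1h4c: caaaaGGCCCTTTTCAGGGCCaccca
The sites of the first 3 genes lay on chromosome 13 of GRCm38, at chr13:23570668-23570683 on the minus strand, chr13:23621782-23621797 on the minus strand and chr13:22043638-22043653 on the plus strand, 32, 40 and 27 bases after the stop codon. The site of Hist3h2a lay at chr11:58955172-58955187 on the plus strand and that of Hist1h4c at chr13:23698089-23698104 on the minus strand. The form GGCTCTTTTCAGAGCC was found in 25 genes of the H1, H2A, H2B and H3 families. The form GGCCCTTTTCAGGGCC was found in 7 genes, all of the H4 family. In 15 of 67 gene models the annotation ended within 20 bases of the stop codon, and none of these 15 held the letters. A missing match thus says only that the letters are not after the stop codon of the transcript searched.

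All 87 cells in the files were used. Replicate 1 had 8932527 counts in all, with 13218 to 702028 per cell (median 141577). Replicate 2 was deeper, with 12706360 counts and 51620 to 956593 per cell (median 238899). No cell number occurred in both libraries. The genes of the sort were present, with Procr at 10 or more counts in 57 cells, Kit in 36 and Cd44 in 64, and the 6 endothelial markers in 37 to 83 cells. For the markers the gate excludes, 10 counts were reached by Itga2b (CD41) in 19 cells, by Spn (CD43) in 5 and by Ptprc (CD45) in 3. Of 4 macrophage markers 3 were at 0, and Csf1r was at 10 or more counts in 1 cell. The embryonic globin genes Hbb-bh1, Hba-x and Hbb-y reached this level in 2, 1 and 5 cells, and the 4 visceral endoderm markers in 0 to 4 cells, with Apob at 0. The 5 mesenchymal markers reached it in 2 to 8 cells, and 3 cells had 100 or more counts of Col1a2. Without these 3 cells, a choice made after seeing the data, 46 histone genes still had a cell at 10 or more counts and 59 of 84 cells had 10 or more histone counts.

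Histone genes made up a small part of the counts in both libraries. Replicate 1 held 5862 histone counts, or 656 CPM, and replicate 2 held 8798, or 692 CPM. The mean was 674 ± 25.6 CPM (SD, n = 2 libraries), which is 0.0674% ± 0.00256 of all counts. H2A genes gave the largest share of the histone counts in both libraries (37.9% and 44.7%) and H2B genes the next (29.4% and 24.9%). The order of the others differed between the libraries, with H1 genes at 18.03% and 8.43%, H4 genes at 8.75% and 12.1%, and H3 genes at 5.92% and 9.75%. Cluster 1 on chromosome 13 gave 96.4% and 91.1% of the histone counts.

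Histone genes with a count were many, but few were frequent. A count was found for 52 of the 68 genes (76.5%), against 57.0% of all genes in the files. A cell with 10 or more counts was found for 46 of the 68 (67.6%), against 52.9% of all genes. For 25 histone genes this was so in replicate 1, for 42 in replicate 2, and for 21 in both. The 46 genes reached 10 counts in a median of 2 of 87 cells, against 13 cells for all genes that reached it at all. The cell with the most counts of a gene held a median of 50.2% of that gene's counts, against 18.6% for all such genes. The levels of histone genes and of all genes were not matched in these comparisons.

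**Figure D1:**
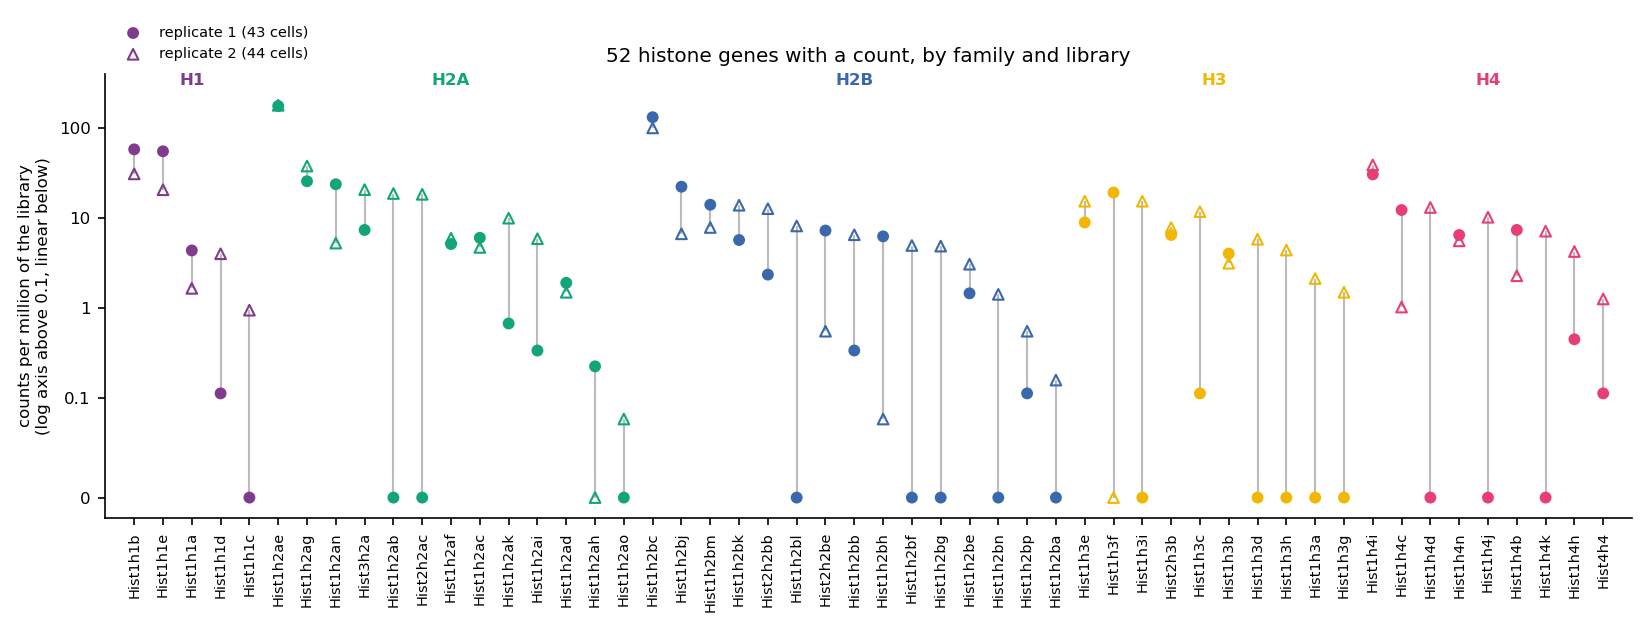
Level of the 52 histone genes with a count in replicate 1 (filled circles) and replicate 2 (open triangles), in CPM of the library, on an axis that is logarithmic above 0.1 and linear below. Genes are grouped and coloured by family, and a grey line joins the values of the 2 libraries. Hist1h2ae and Hist1h2bc lay at or above 101 CPM in both libraries, while many of the lower genes were at 0 in replicate 1.

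Hist1h2ae, which codes for a canonical H2A, was the highest histone gene. It lies at chr13:23570517-23571220 of GRCm38 on the minus strand, as 1 exon. Its level was 177 CPM in replicate 1 and 180.3 CPM in replicate 2 (mean 179 ± 2.103, SD, n = 2 libraries). Its 3875 counts were concentrated in 10 cells of replicate 1 and 10 cells of replicate 2 with 10 or more counts, which held 99.0% of them. Another 27 cells had 1 to 9 counts. The share of cells at 10 or more was 23.0% (exact 95% interval 14.6% to 33.2%, counting error only).

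Hist1h2bc, which codes for a canonical H2B, was the most frequent histone gene. Its model lies at chr13:23684199-23692908 on the plus strand and has 2 exons, with 742 bases after the stop codon, a polyadenylation hexamer (AATAAA or ATTAAA) and no stem-loop letters. Its level was 133 CPM in replicate 1 and 101 CPM in replicate 2 (mean 117 ± 22.6). It reached 10 counts in 10 of the 43 and 19 of the 44 cells, together 33.3% (exact interval 23.6% to 44.3%). Both genes reached 10 counts in the same cell in 8 of 87 cells, 3 of replicate 1 and 5 of replicate 2. Hist1h2bc thus reached 10 counts in 8 of the 20 cells with Hist1h2ae, against 29 of all 87 cells.

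Linker histone genes came next. Hist1h1b (chr13:21779883-21780625, minus strand), which codes for linker histone H1.5, had 58.3 and 31.1 CPM in replicates 1 and 2, with 10 or more counts in 5 and 6 cells. Its gene model ends at the stop codon, so its 3′ end could not be searched. Hist1h1e (chr13:23620629-23622558, minus strand), which codes for H1.4, had 55.5 and 20.7 CPM, with 10 or more counts in 4 and 3 cells. By GENCODE M21 it shares 496 bases on the same strand with Hist1h2be, so reads there could come from either gene. Whether such reads were counted is not stated. Hist1h1a reached 10 counts in 1 cell of each library, Hist1h1c and Hist1h1d each in 1 cell of replicate 2, and Hist1h1t had no count.

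Among the other H2A genes, Hist1h2ag had 25.7 and 38.0 CPM and reached 10 counts in 3 and 6 cells. Hist1h2an had 23.8 and 5.27 CPM and reached it in 3 cells and 1 cell. In these 2 genes 76.2% and 83.3% of all 100-base windows also occur in another histone gene. Counts of uniquely mapped reads may thus understate them, which was not tested. Hist3h2a (chr11:58954685-58956830, plus strand) had 7.39 and 20.8 CPM, and its 13 cells at 10 or more counts were the third most among the H2A and H2B genes. By GENCODE M21 it lies wholly within Trim17 on the same strand, but Trim17 itself had 0 counts in replicate 1 and 1 in replicate 2. By GENCODE M21 most H2A genes also overlap short miRNA models on the opposite strand. The counting is not stated to use strand or to include these models. Whether reads of both were told apart is thus not known.

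The other H2B genes named by level were Hist1h2bj, at 22.4 and 6.69 CPM, Hist1h2bm, at 14.1 and 7.87 CPM, and Hist1h2bk, at 5.71 and 13.9 CPM. They reached 10 counts in 8, 4 and 5 of 87 cells. The core histone H4 was led by Hist1h4i (chr13:22040636-22041362, minus strand) at 30.7 and 39.1 CPM, with 10 or more counts in 6 and 10 cells. Its model has a polyadenylation hexamer and no stem-loop letters. Of the H3 genes, Hist1h3e had the highest mean of the 2 libraries, at 8.96 and 15.4 CPM, with 10 or more counts in 1 and 5 cells. Hist1h3f was higher in replicate 1, at 19.3 CPM, but all its 172 counts were in 1 cell.

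For the lower genes, much of the level came from single cells. Duplicates had been removed by the authors with the molecular identifiers, and whether copies from amplification remain was not tested. A cell with 100 or more counts was found for 13 histone genes. For Hist1h2bl, all 104 counts were in 1 cell of replicate 2, and for Hist1h3c 117 of its 151 counts were. Of the 239 counts of Hist1h2ab and the 234 counts of Hist2h2ac, 138 and 136 were in the top cell, and both genes were at 0 in replicate 1. Of the 42 histone genes with 50 or more counts, 20 (47.6%) differed by over 10 times in CPM between the libraries, against 9.84% of the 11057 genes with 50 or more counts. A library with no count was set to 3 counts for this. Of the 20 genes, 16 were higher in replicate 2, among them Hist1h3i with 0 and 196 counts, Hist1h4d with 0 and 167 and Hist1h4j with 0 and 130. The other 4 were higher in replicate 1, namely Hist1h3f, Hist1h4c with 110 and 13 counts, Hist2h2be with 65 and 7, and Hist1h2bh with 56 and 1. The libraries differed in depth and hold different cells, and the part of each in these differences was not tested.

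No count was found for 16 histone genes, which allows a level of up to 0.139 CPM over both libraries. Of these, 7 share 50% or more of their 100-base windows with another histone gene, among them Hist2h2aa1 (88.1%) and Hist2h2aa2 (100%). Reads that map to several places were not counted by the authors, which can lower the counts of these 7 genes. For none of the 16 can a value of 0 be read as absence, since oligo-dT does not have the usual tail to bind. Hist1h1t, Hist1h2aa and Hist2h4 shared no such window and were at 0 too. Of the genes known from testis, Hist1h2ba had 2 counts, and Hist1h1t and Hist1h2aa had none.

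Genes with and without an annotated stem-loop were found at similar shares. Of the 32 genes with the stem-loop letters in the transcript searched, 21 (65.6%) had a cell at 10 or more counts, and of the 36 without, 25 (69.4%) did. The summed mean level was 348 CPM with and 327 CPM without the letters. Of the 22 genes with a polyadenylation hexamer after the stop codon, 13 (59.1%) had such a cell, against 33 of 46 (71.7%) without. Among the genes with the letters, 12 of 32 also had a hexamer further downstream, and 9 of these 12 (75.0%) had such a cell. These shares are descriptions of gene models that differ in how far they extend.

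Seen by cell, histone counts ranged widely. Of all cells, 61 of 87 had 10 or more summed histone counts (70.1%, exact 95% interval 59.4% to 79.5%). They were 25 of 43 cells (58.1%, 42.1% to 72.99%) in replicate 1 and 36 of 44 (81.8%, 67.3% to 91.8%) in replicate 2. Depth bears on this count. When cells were thinned to 20000 counts each (1 cell was too shallow for this), 35 of 86 cells had 10 or more, 16 of 42 and 19 of 44, so the share was 38.1% in replicate 1 and 43.2% in replicate 2. The median cell had 319 histone CPM in replicate 1 (0 to 2875) and 389 in replicate 2 (12.6 to 3387). The 5 cells with the most histone counts held 47.3% of them in replicate 1 and 57.5% in replicate 2.

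**Figure D2:**
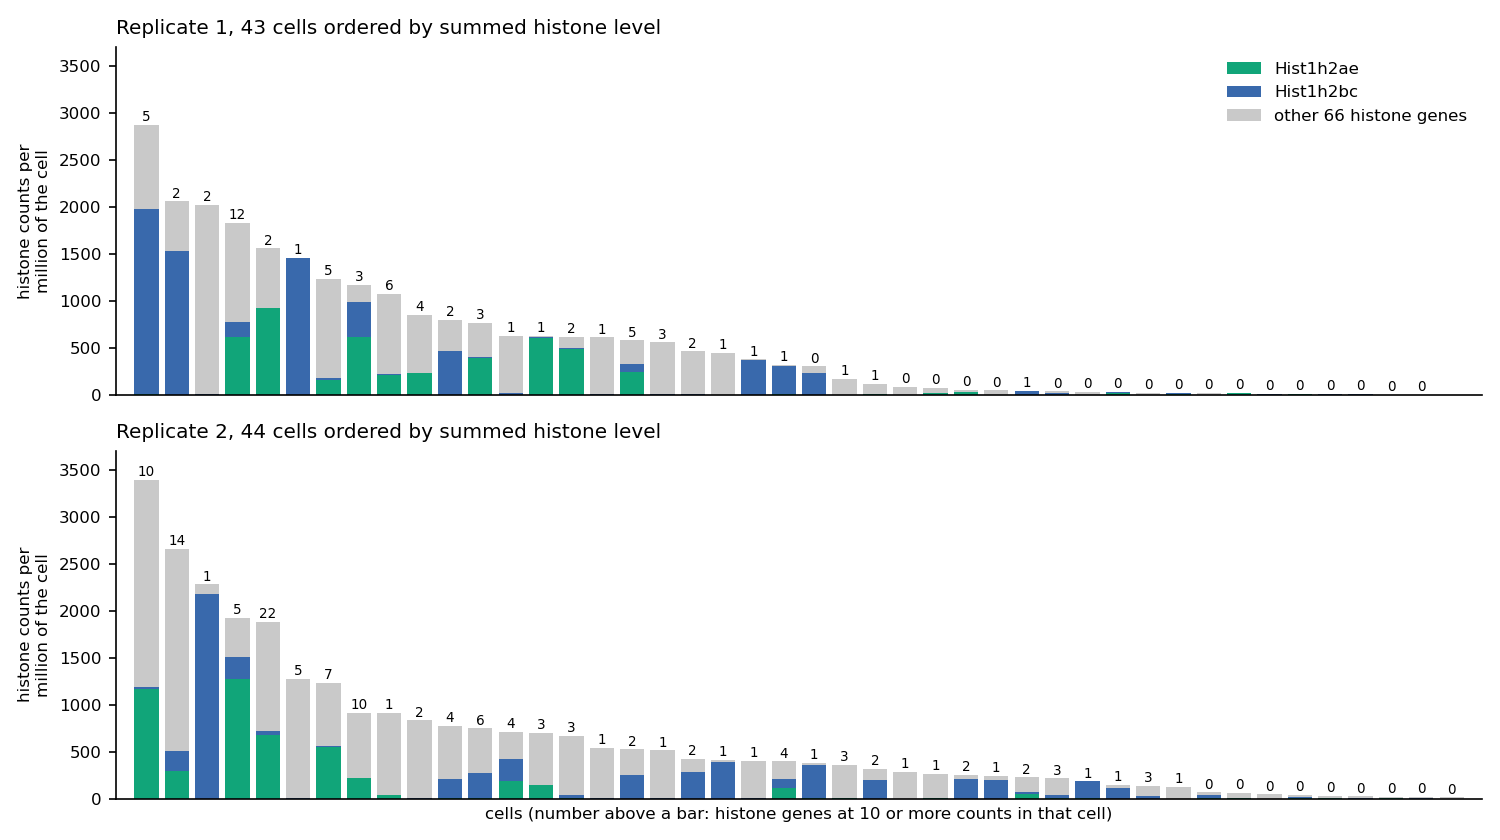
Summed histone level of each cell, in CPM of that cell, for the 43 cells of replicate 1 (top) and the 44 cells of replicate 2 (bottom), ordered by level. Colours give the part of Hist1h2ae (green), Hist1h2bc (blue) and the other 66 genes (grey), and the number above a bar is how many histone genes had 10 or more counts in that cell. Both libraries ran from a few cells above 1000 CPM to a long tail near 0. Of the 20 cells with 10 or more counts of Hist1h2ae, 8 also had 10 or more of Hist1h2bc, against 29 of all 87 cells.

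Most cells with histone counts had few of the genes. A histone gene at 10 or more counts was found in 60 of 87 cells, and in 23 of them it was 1 gene only. The leading gene held a median of 67.1% of the histone counts in the 60 cells (11.7% to 100%). It was Hist1h2bc in 19 cells, Hist1h2ae in 13 and another of 17 genes in 28. Genes of H2B reached 10 counts in 41 cells, of H2A in 30, of H4 in 25, of H1 in 17 and of H3 in 14. All 5 families did so together in 5 cells, and a single family in 27.

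A small set of cells carried many of the genes at once. At least 5 histone genes at 10 or more counts were found in 13 cells (14.9%, 8.20% to 24.2%), 5 of replicate 1 and 8 of replicate 2. In 5 cells there were 10 or more such genes, with 12 in 1 cell of replicate 1 and 10, 10, 14 and 22 in 4 cells of replicate 2. The cell with 22 genes had 3 of H1, 7 of H2A, 5 of H2B, 3 of H3 and 4 of H4, and 1802 histone counts. It was also the deepest cell of its library, with 956593 counts in all. The cell with 14 genes had 161212 counts, below the median of its library. All 5 cells had Mki67, between 499 and 695 CPM, and Top2a, between 375 and 1358 CPM, while Pcna ran from 18.6 to 440 CPM.

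Of 11 variant and linker histone genes outside the clusters, most were frequent, and they reached 10 counts in 3 cells (H1fx) to 83 cells. H3f3b, a replication-independent H3 variant with a polyadenylated mRNA, had 1193 and 1227 CPM and 10 or more counts in 83 of 87 cells. H2afz, an H2A variant, had 979 and 808 CPM and reached 10 counts in 74 cells, and H2afx, which marks DNA breaks when phosphorylated, did so in 54. Slbp had levels of 51.2 and 116 CPM, with 10 or more counts in 7 and 24 cells. Npat, which drives transcription of the clusters, had 91.6 and 49.98 CPM and reached 10 counts in 27 cells.

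Many H2A and H2B genes lie head to head and share the DNA between their start sites. By position, 14 head-to-head pairs of neighbours under 1000 bases apart were found among the 68 genes, with 172 to 659 bases between the start sites. Of these, 13 join an H2A and an H2B gene, and the widest joins Hist1h2bh with the H3 gene Hist1h3f. The 2 most abundant histone genes each belong to a pair, and in both the partner reached 10 counts in few cells. Hist1h2ae reached 10 counts in 20 cells and its partner Hist1h2bg in 3, all 3 of which also had Hist1h2ae. Hist1h2bc reached it in 29 cells and its partner Hist1h2ac in 3, of which 2 also had Hist1h2bc. Only in the pair of Hist1h2ag and Hist1h2bj were both genes found in more than 5 cells, 9 and 8, and these shared 2. In 3 of the 14 pairs neither gene reached 10 counts in a cell.

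**Figure D3:**
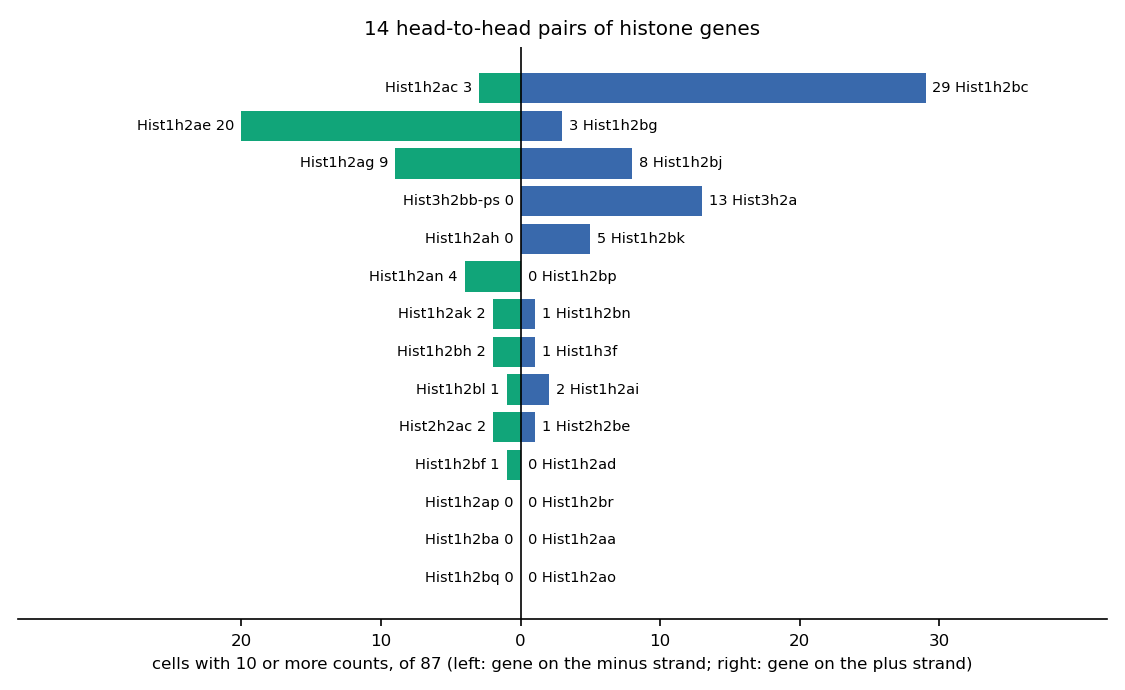
Number of cells, of 87, with 10 or more counts of each gene in 14 head-to-head pairs. Bars to the left are genes on the minus strand and bars to the right genes on the plus strand. The pairs of Hist1h2ac with Hist1h2bc (3 and 29 cells) and of Hist1h2ae with Hist1h2bg (20 and 3 cells) had the widest gaps, and Hist1h2ag with Hist1h2bj (9 and 8 cells) was the most even of the frequent pairs.

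The DNA between the start sites is shown for the 2 abundant pairs, since each stretch faces a frequent and a rare gene. The stretches were read from RefSeq promoters on GRCm38.p6, 5′ to 3′ on the strand of the gene named first. Capitals mark, on either strand, the TATA box as the letters TATAAA, the CCAAT box as those 5 letters, and the octamer that histone promoters are known for as the letters ATTTGCAT. They lay at chr13:23571221-23571395 on the minus strand and chr13:23683949-23684198 on the plus strand.
Hist1h2ae (partner Hist1h2bg): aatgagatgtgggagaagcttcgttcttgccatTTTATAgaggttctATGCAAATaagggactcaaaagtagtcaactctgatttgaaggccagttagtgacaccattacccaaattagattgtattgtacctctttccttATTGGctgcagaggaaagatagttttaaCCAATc
Hist1h2bc (partner Hist1h2ac): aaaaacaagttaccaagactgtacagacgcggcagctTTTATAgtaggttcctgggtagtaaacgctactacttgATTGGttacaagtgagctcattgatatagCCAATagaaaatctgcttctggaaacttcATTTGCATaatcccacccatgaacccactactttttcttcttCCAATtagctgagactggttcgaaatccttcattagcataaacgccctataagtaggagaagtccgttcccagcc
The first stretch of 175 bases held 1 TATA box, 2 CCAAT boxes and 1 octamer. The second of 250 bases held 1, 3 and 1. In both stretches the TATA match is printed as TTTATA, so the letters TATAAA lie on the strand of the partner. Both strands were searched, so each motif also appears as its reverse complement, for example ATTGG, and no motif overlapped another.

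RefSeq promoters, each from 250 bases before to 50 bases after the start, were matched for 61 of the 68 genes. The TATA box was found in 57.4% of them, against 14.2% of all 27025 promoters. The CCAAT box was found in 85.2%, against 37.9%, and was present in every matched promoter of the H1, H2A, H2B and H3 families but in 3 of 12 of the H4 family. The octamer was found in 7 of 17 H2A and 6 of 16 H2B promoters and in no matched promoter of the other families, and in 1.75% of all promoters. Promoters of head-to-head neighbours overlap in part, so a match between their start sites can be counted for both genes. These are matches of letters and not measured binding sites.

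To ask how histone counts go with proliferation and with the hemogenic program, cells were split within each library by 1 gene. Mki67 is made by cycling cells, Pcna is the clamp of DNA replication, and Runx1 is the transcription factor required for blood to form from endothelium. High cells were those above the library median of the gene, 21 of 43 cells in replicate 1 and 22 of 44 in replicate 2, and the others were low. Counts were summed per library and side of the split, which gave 4 sums per gene. High cells were deeper in each split. With Mki67, for example, the median cell had 245523 counts against 90600 in replicate 1 and 264754 against 207920 in replicate 2. Only 2 libraries stand behind each comparison.

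The summed histone level lay above that of the low cells in Mki67-high cells of both libraries. The summed level was 824 CPM in high and 425 CPM in low cells of replicate 1, and 833 and 476 CPM in replicate 2. The log2 fold was 0.96 and 0.81 (mean 0.88 ± 0.10, SD, n = 2 libraries, with no test). The median cell had 626 histone CPM among high and 44.1 among low cells of replicate 1, and 526 and 273 in replicate 2. High and low cells overlapped in both libraries, and in replicate 1 high cells ran from 7.69 to 2875 CPM and low cells from 0 to 1559 CPM. Across the cells, the Spearman correlation of histone CPM with Mki67 CPM was 0.43 in replicate 1 (43 cells) and 0.35 in replicate 2 (44 cells). As the cells of a library share its preparation and differ in depth, this is a description. Histone CPM itself correlated with total counts at 0.33 and 0.06.

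Among the 12 highest genes, Hist1h1b had the lowest unadjusted p with Mki67. By TMM-scaled CPM, which are used for single genes in all splits, it had 96.5 CPM in Mki67-high and 7.12 CPM in Mki67-low cells of replicate 1, and 47.2 and 4.61 CPM in replicate 2. It reached 10 counts in 4 high and 1 low cell of replicate 1 and in 5 high and 1 low cell of replicate 2. The log2 fold change was 3.61 (standard error 0.89), with an adjusted p = 1.00 in the edgeR quasi-likelihood fit, corrected by Benjamini-Hochberg over 10650 genes (unadjusted p = 0.00342). Its Spearman correlation with Mki67 across cells was 0.09 in replicate 1 and 0.27 in replicate 2. Over the alternatives its log2 fold change ran from 3.36 to 3.77 and its adjusted p from 0.0726 (DESeq2) to 1.00. Hist1h2bm, with 125 counts in high and 1 in low cells of replicate 1 and 98 and 2 in replicate 2, and Hist1h2an, with 210 and 3 and 66 and 1, also lay mostly in high cells. Each rests on 4 cells with 10 or more counts.

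The 2 most abundant genes did not follow this. Hist1h2ae had 161 CPM in high and 207 CPM in low cells of replicate 1 and 207 and 131 CPM in replicate 2. It reached 10 counts in 6 high and 4 low cells of replicate 1 and in 9 high and 1 low cell of replicate 2. Hist1h2bc went opposite ways in the libraries, with 192 against 55.3 CPM in replicate 1 and 57.1 against 167 CPM in replicate 2. It reached 10 counts in 6 high and 4 low cells of replicate 1 but in 7 high and 12 low cells of replicate 2. Its Spearman correlation with Mki67 was 0.30 in replicate 1 and -0.26 in replicate 2, and with Top2a, a topoisomerase of cycling cells, 0.45 and -0.38. Without both genes, the log2 fold of the summed level with Mki67 was 1.49 in replicate 1 and 1.66 in replicate 2, and the Spearman correlation was 0.40 and 0.51.

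Over the 23 histone genes that passed the filter on low counts, 20 had higher values in Mki67-high cells, with a median log2 fold change of 1.19 against -0.01 over all genes tested. Those that passed did so partly through the side on which they were high. None passed an adjusted p of 0.05 by edgeR, by which 0% of the 10650 genes did. At an unadjusted p under 0.05 there were 3 histone genes, all higher in high cells, against 2.41% of all genes in either direction and 1.31% higher. With the library as a block, by which 4 genes passed (Top2a, Cenpe and Prc1 higher and Malat1 lower, 0.0376% of the genes), no histone gene did either. DESeq2 called 8 genes (0.081%) and no histone gene. Genes outside the clusters that are named because they passed a test were chosen after their values were seen.

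**Figure D4:**
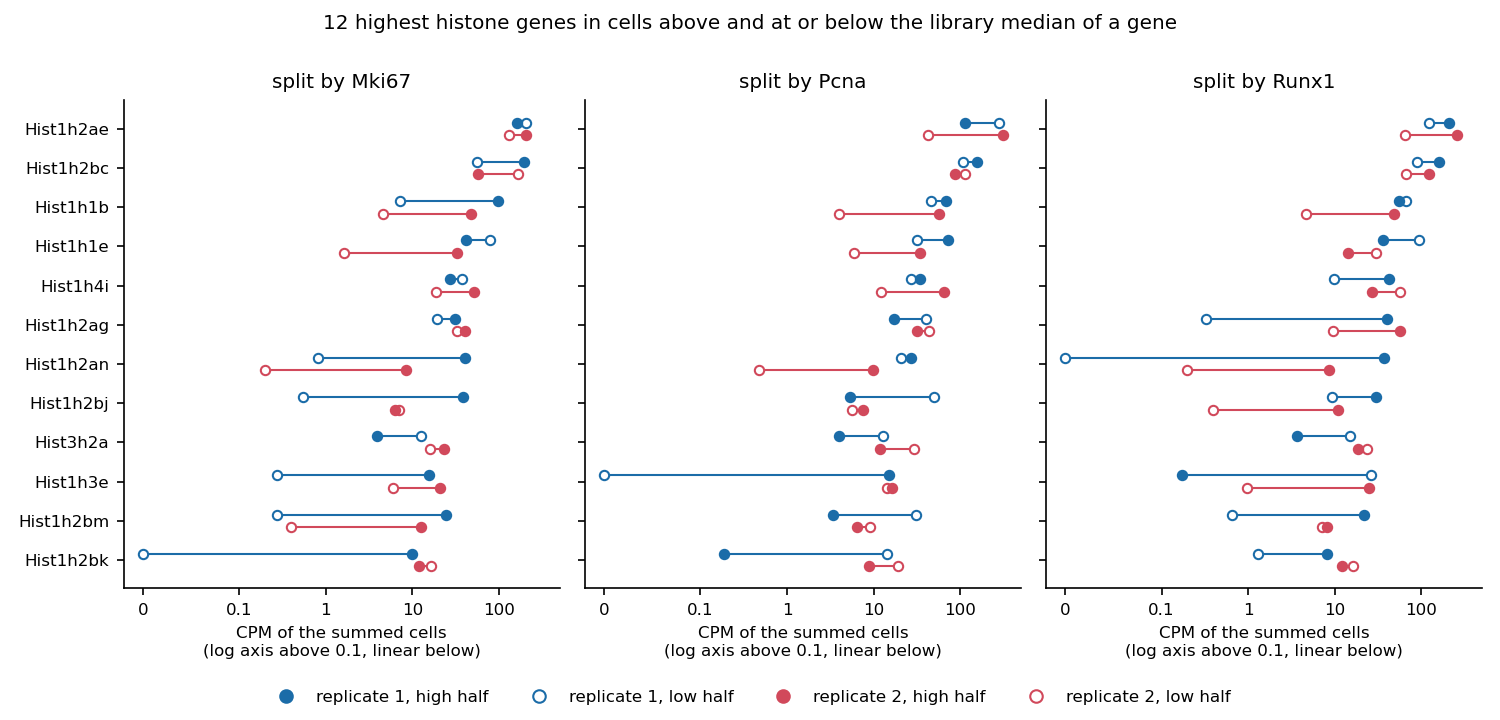
Level of the 12 highest histone genes in the summed cells above (filled points) and at or below (open points) the library median of Mki67, Pcna or Runx1, in CPM scaled by TMM, on an axis that is logarithmic above 0.1 and linear below. Blue is replicate 1 and red is replicate 2. Hist1h1b, Hist1h2ag, Hist1h2an, Hist1h3e and Hist1h2bm lay higher in the Mki67-high cells of both libraries, while Hist1h2ae and Hist1h2bc changed sides between libraries with Mki67 and Pcna but not with Runx1.

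With Pcna the summed level did not go the same way in the libraries in the split at the median, while the level of the median cell did. The median cell had 559 histone CPM among Pcna-high and 78.8 among Pcna-low cells of replicate 1. In replicate 2 it had 526 and 319. High and low cells overlapped in both libraries. The summed histone level was 614 CPM in Pcna-high and 719 CPM in Pcna-low cells of replicate 1, and 927 and 445 CPM in replicate 2, so that the log2 fold was -0.23 and 1.06 (mean 0.42 ± 0.91, no test). With cells split at 10 counts of Pcna the log2 folds were 1.05 and 0.76, and with cells thinned to one depth they were 0.16 and 0.39, so the direction in replicate 1 turned with the setting. Hist1h2ae differed between the libraries in the same way. It had 113 against 284 CPM in replicate 1 and 309 against 42.7 CPM in replicate 2. Without Hist1h2ae the log2 folds were 0.18 and 0.62. The Spearman correlation of histone CPM with Pcna CPM was 0.30 in replicate 1 and 0.20 in replicate 2. For Hist1h1b it was 0.09 and 0.39 and for Hist1h4i 0.18 and 0.32. Hist3h2a was lower in Pcna-high cells of both libraries, at 3.97 against 12.96 CPM and 11.95 against 29.3 CPM. By edgeR none of 31 histone genes tested passed, with or without the block, and 0% of 10710 genes did without it and 0.056% with it. At an unadjusted p under 0.05 there was 1, Hist1h1a, which was lower, against 2.17% of all genes in either direction and 1.07% higher. Hist1h1a reached 10 counts in 2 cells, and DESeq2 called no histone gene (0.00757% of all genes). Of the 31, which were filtered in the same way, 20 had higher values in Pcna-high cells, with a median log2 fold change of 0.63 against -0.00 over all genes.

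With Runx1 the summed level lay above that of the low cells in the high cells of both libraries. It was 763 CPM in Runx1-high and 462 CPM in Runx1-low cells of replicate 1, and 928 and 342 CPM in replicate 2. The log2 fold was 0.73 and 1.44 (mean 1.08 ± 0.51, no test). The Runx1 median that split replicate 2 was low, at 10.03 CPM. In that library 17 cells had 10 or more Runx1 counts and 27 had fewer. With cells split at 10 counts of Runx1 the log2 fold was 0.56 in replicate 1 and 0.99 in replicate 2. With cells thinned to one depth it was 0.50 and 0.30, and the Spearman correlation across cells was low, at 0.14 and 0.16. Hist1h2ae had 211 against 121 CPM in replicate 1 and 254 against 64.2 CPM in replicate 2, and reached 10 counts in 7 high and 3 low cells of each library. Its log2 fold change was 1.33 (standard error 0.50), which did not pass (adjusted p = 0.846 by edgeR's quasi-likelihood test, unadjusted p = 0.0245). Its adjusted p over the alternatives ran from 0.113, with the library as a block, to 0.974. Hist1h2bc had 159 against 88.3 CPM and 122 against 66.3 CPM. Hist1h1e went the other way, at 36.4 against 93.9 CPM and 14.02 against 30.1 CPM.

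Of 27 histone genes tested with Runx1, which again passed the filter partly through the side on which they were high, 20 had higher values in Runx1-high cells, with a median log2 fold change of 1.15 against -0.01 over all genes. With cells thinned to one depth this was not so, as 5 could be tested, 2 had higher values, and the median was -0.71. None passed by edgeR without the block, by which 1 gene did (Col1a1, which was lower in high cells, 0.00941% of 10629), nor with the block, by which 1.56% of the genes did. At an unadjusted p under 0.05 there were 3, namely Hist1h2an, Hist1h2ae and Hist1h4b, all higher, against 5.53% of all genes in either direction and 1.94% higher. DESeq2 called Hist1h2an (adjusted p = 0.0367 by its Wald test), beside 1.4% of all genes. Hist1h2an had 213 counts in Runx1-high and 0 in Runx1-low cells of replicate 1, and 66 and 1 in replicate 2. These counts came from 4 cells with 10 or more, and no fold is given for them.

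**Figure D5:**
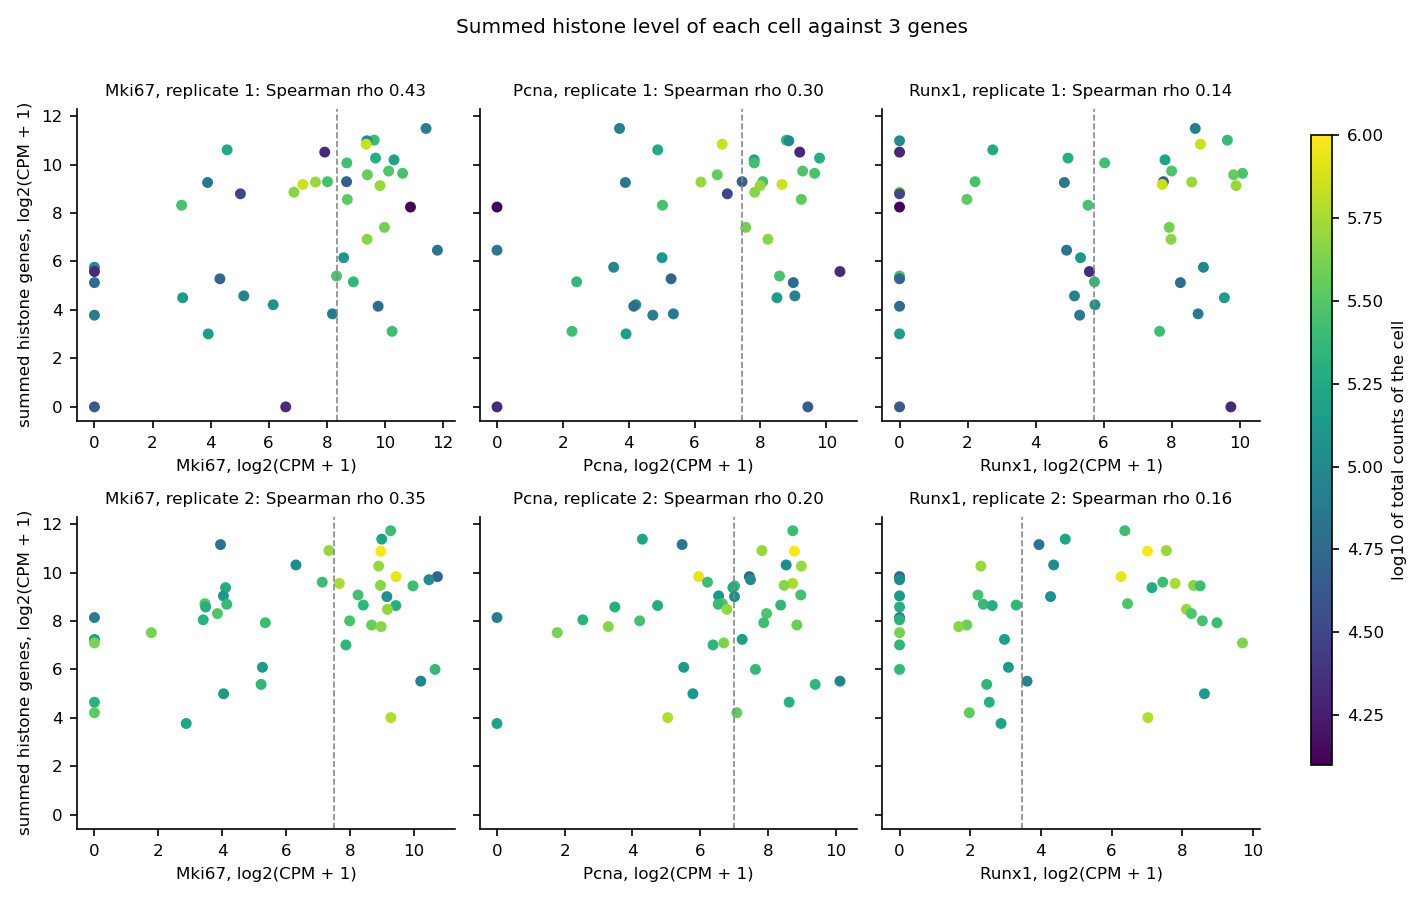
Summed histone level of each cell against Mki67, Pcna and Runx1 in replicate 1 (top) and replicate 2 (bottom), both as log2(CPM + 1), coloured by the log10 of the total counts of the cell. The dashed line is the library median that splits the cells, and the Spearman correlation is above each panel. Cells with high histone levels occurred on both sides of every line, and of the 3 genes Mki67 gave the highest correlation (0.43 and 0.35).

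Other genes of the cell cycle gave correlations of like size. Histone CPM correlated with Top2a at 0.50 in replicate 1 and 0.24 in replicate 2. With the mean log2(CPM + 1) of 32 S phase genes it did so at 0.54 and 0.30, and with that of 20 G2 and M phase genes at 0.44 and 0.29. With Slbp it was 0.32 and 0.26. For Hist1h2bc alone the S phase value was 0.36 in replicate 1 and 0.02 in replicate 2, and for Hist1h2ae alone it was 0.53 and 0.19. Among the histone genes that reached 10 counts in at least 3 cells of a library, the median Spearman correlation between 2 genes was 0.21 over 36 pairs in replicate 1 and 0.15 over 105 pairs in replicate 2. Between Hist1h2ae and Hist1h2bc it was 0.15 and 0.03.

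Genes around the histone pathway were read in the same splits from lists chosen with earlier results of these data known. Of 15 genes of histone mRNA transcription and 3′ end processing, all 15 were tested and none passed by edgeR in the splits by Mki67, Pcna or Runx1, with or without the block. Of them 9, 8 and 3 had higher values in the high cells (median log2 fold change 0.04, 0.40 and -0.35). Slbp had 73.7 against 21.6 CPM in Mki67-high and Mki67-low cells of replicate 1 and 118 against 108 CPM in replicate 2. None of 13 histone chaperone genes passed, and 11, 10 and 11 of them had higher values in the high cells of the splits by Mki67, Pcna and Runx1 (median log2 fold change 0.34, 0.37 and 0.42). None of 11 variant and linker histone genes outside the clusters passed either, and 8, 7 and 6 had higher values (median 0.15, 0.30 and 0.16). Over all genes the medians were -0.01, -0.00 and -0.01. H2afz in Mki67-high and Mki67-low cells was at 1055 against 912 CPM and 839 against 731 CPM. At an unadjusted p under 0.05 by edgeR there were 0 genes of these 3 lists with Mki67, 1 with Pcna and 1 with Runx1, and DESeq2 called 0. Of all genes tested, 2.41%, 2.17% and 5.53% had such a p, and 0%, 0% and 0.00941% passed by edgeR without the block. Of 19 G2 and M phase genes without Mki67, 19 had higher values in Mki67-high cells, and 2 passed with the block. Of 31 S phase genes without Pcna, 29 had higher values in Pcna-high cells, and 1, Rrm2, passed with the block.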

How the data were processed

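Per the labels and the study's methods, the authors split reads by cell barcode, trimmed them and aligned them to the mm10 transcriptome with HISAT2 2.1.0. They counted uniquely mapped reads with HTSeq and removed duplicates by molecular identifier, and the deposited values are raw counts per gene and cell, with no normalization. Reads shared by near-identical histone genes are lost in this step. Per the study's methods, the authors had kept only cells above set minimums of genes and transcripts. They had also left out cells with very many reads and genes, as possibly not single. All 87 deposited cells were used, and no further search for doublets was made. Levels were computed as CPM, and correlations as Spearman on CPM. Counts summed per library and side of a split were tested with edgeR 4.0.16 (quasi-likelihood, TMM, filterByExpr, no block, the split gene left out) in R 4.3.3, with Benjamini-Hochberg adjustment at 0.05. DESeq2 1.42.0, RLE size factors, no filter, a split at 10 counts, cells thinned to 20000 counts and the library as a block were alternatives. Both sides of a split come from the same library, so the block pairs them, and their deviations correlated at 0.18, 0.19 and 0.20. The tests were checked on simulated data. Intervals are exact binomial at 95% and, like the floors of 3 counts, cover counting error only. Named genes were the 12 histone genes with the highest mean CPM, those with a cell at 100 or more counts, those called, and those that differed between libraries by over 10 times with 50 or more counts, beside the genes of the splits and reference genes. The histone genes and the lists were chosen with earlier results of these data known.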

Additional observations from a re-analysis of the deposited data

How the results depend on the processing

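Results rest on 2 libraries of 1 condition, on transcripts that oligo-dT could capture, and on few cells per gene. Of 91 alternative values for the main results, 28 moved by more than the spread of the value (counts, by over 1.5 times) and 63 did not. The cause was not tested except where the alternative uses fewer cells, counts or genes by construction. Leaving out 1 library cannot move a mean of 2 libraries by more than their spread, so those values among the 63 say nothing on stability. The numbers of called histone genes were 0 in nearly all settings and could hardly move either. No histone gene passed by edgeR under any alternative, with the library as a block (0, 0 and 0 with Mki67, Pcna and Runx1) or without it. The block thus changed no call of a histone gene. Over all genes, calls went from 0 to 4 with Mki67, 0 to 6 with Pcna and 1 to 166 with Runx1. DESeq2 called 1 histone gene with Runx1. With 1 library left out only a fold could be had, with no test. Genes with a cell at 10 or more counts ranged from 25 to 42 with 1 library left out, and cells with 10 or more histone counts fell to 35 when thinned. The mean of single cells gave a histone share of 0.0592%. The log2 fold with Mki67 was 1.37 with the split at 10 counts, 1.19 thinned and 0.77 without the top cell of each library. It was 1.21 without Hist1h2ae, and, as choices made after seeing the data, 1.05 without Hist1h2bc and 1.58 without both, and 0.94 without the 3 cells rich in Col1a2. With Runx1 it was 0.40 thinned, and 0.73 to 1.44 with 1 library left out. With Pcna, where the spread was wide, it was 0.91 with the split at 10 counts, 0.27 thinned, and -0.23 to 1.06 with 1 library left out. Thinned Spearman correlations were 0.26 for Mki67 in replicate 2, 0.17 and 0.077 for Pcna, and 0.12 and 0.095 for Runx1. With all counts but without Hist1h2bc, the Spearman correlations were 0.53 for Mki67 in replicate 2, 0.14 and 0.31 for Pcna and 0.20 for Runx1 in replicate 1. Without both genes they were 0.51, 0.16 and 0.28, and 0.20 and 0.11 for Runx1. Without Hist1h2ae Runx1 gave 0.10 and 0.13, and its Pearson correlation in replicate 1 was 0.10.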
